A study of Mus musculus with 2 samples.

Results

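Keratinocytes are the epithelial cells that build the epidermis. Here they were studied as the barcodes that kept keratin transcripts in 2 single-cell RNA libraries prepared from epidermal lymphocytes of mouse ear skin. Members were chosen by their own counts. A barcode was taken where at least 300 genes were detected, at most 12% of its UMIs came from mitochondrial genes, the 5 keratin genes Krt5, Krt14, Krt10, Krt1 and Krt15 together had at least 10 UMIs, and Cd3d, Cd3e and Cd3g, the CD3 chains of T cells, together had at most 2. A UMI (unique molecular identifier) marks 1 captured transcript molecule. The rule found 181 keratinocytes among 11256 kept barcodes, 58 of 4770 with the isotype control and 123 of 6486 with the Skint1 antibody.

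Both libraries came from ear epidermis of wild-type female FVB/NJ mice aged 8 weeks. Skin was taken on day 7 after 10 μg of antibody was injected intradermally into the ear pinna, either a rat IgG2a isotype control or an antibody against Skint1. Live cells were sorted as CD45+EpCAM-MHC-II-, a gate for lymphocytes that keratinocytes should not pass, since they lack the leukocyte protein CD45. Each treatment had 1 library, from 1 mouse by the study's definition of n, so treatment, mouse and library cannot be told apart and no test was made. Intervals in parentheses are exact 95% intervals, which cover counting error only.

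Keratinocytes divide in the basal layer, where they make the paired keratins Krt5 and Krt14 and anchor to the basement membrane through hemidesmosomes. They then leave this layer, switch to Krt10 with the partner keratins Krt1 and Krt2, and fill with the proteins and lipids of the barrier in the spinous and granular layers. Dendritic epidermal T cells (DETCs) are γδ T cells that lie among them. Their development depends on Skint1, a butyrophilin-like protein of keratinocytes, and they read keratinocyte-borne ligands such as the NKG2D ligand H60c and the coxsackievirus and adenovirus receptor Cxadr, and release growth factors and cytokines that keratinocytes can sense. DETCs were taken here as kept barcodes with at least 3 Trdc UMIs and at least 3 UMIs of the 3 CD3 genes, which gave 4145 with the isotype control and 5696 with the Skint1 antibody.

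The keratinocytes were few but large. They made up 1.22% of kept barcodes in the isotype library (0.925 to 1.57%) and 1.90% in the Skint1 antibody library (1.58 to 2.26%), and held 5.06% and 8.03% of the UMIs of kept barcodes. With the isotype control a keratinocyte had 870 UMIs at the lowest, 17264 at the median and 70685 at the highest. With the Skint1 antibody these values were 686, 16440 and 63200. Median DETCs had 4179 and 3674 UMIs, so that the typical keratinocyte carried several times the UMIs of the typical DETC in both libraries.

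The gene number followed the same order. Keratinocytes had a median of 3369 and 3285 detected genes against 1658 and 1506 in DETCs (isotype and Skint1 antibody library, the order kept from here on). More than 2500 genes were found in 53 of 58 keratinocytes (91.4%, 81.0 to 97.1%) and 97 of 123 (78.9%, 70.6 to 85.7%), but in only 9.10% and 6.16% of DETCs. Keratinocytes were thus 11.3% and 20.9% of all kept barcodes above 2500 genes. Between 500 and 2500 genes, the range that was kept for the lymphocytes, lay only 4 and 20 of them. The plot of genes per barcode shows that an upper limit at 2500 genes takes away most keratinocytes and leaves most DETCs.

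**Figure D1:**
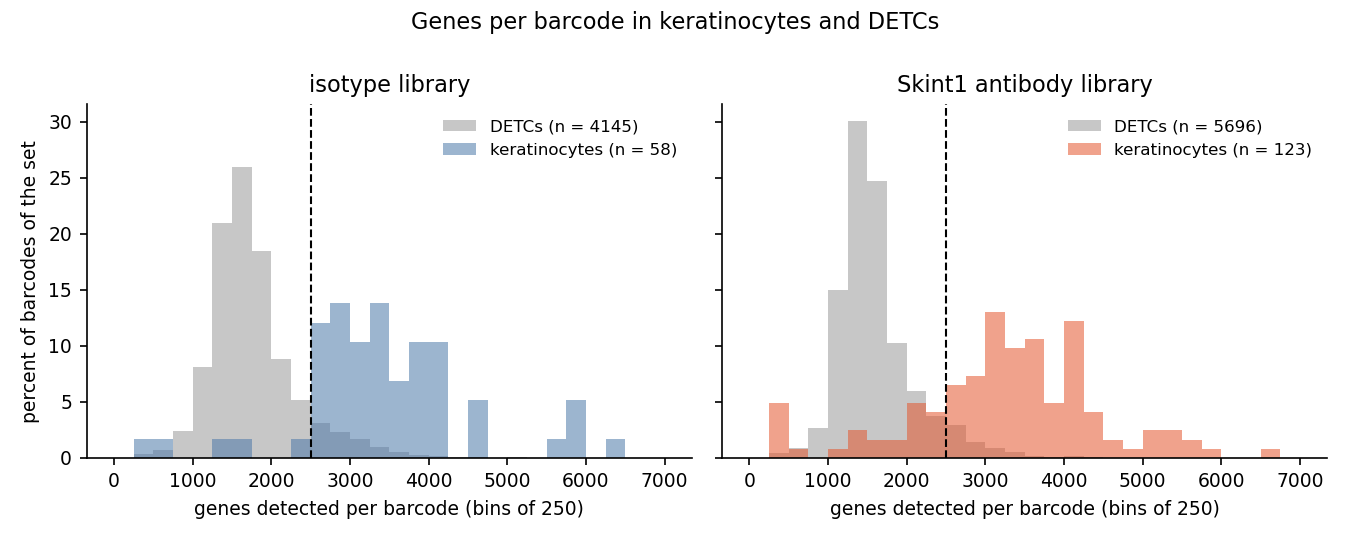
Percent of DETC and keratinocyte barcodes (vertical axis) in bins of 250 detected genes (horizontal axis) in each library, with a dashed line at 2500 genes. Keratinocytes lie mostly to the right of the line (53 of 58 and 97 of 123), DETCs mostly to the left.

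A small second group of members sat at the other end. All 7 members with fewer than 500 genes, 1 with the isotype control and 6 with the Skint1 antibody, had more Krt1 and Krt10 than Krt5 and Krt14 UMIs. They held 686 to 1963 UMIs, 11 to 19 of them from Krt10 and 2 to 28 from Krt2, none from loricrin (Lor), and 0 to 2.39% from mitochondrial genes. Keratinocytes as a whole had median mitochondrial shares of 4.02% and 4.16%, below the 5.39% and 5.57% of DETCs.

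Few barcodes lay near the keratin limit, and more lay at the CD3 limit. The members had a median of 420 keratin UMIs in each library, with minima of 17 and 11, whereas the median DETC had 0. Just inside the limit, 1 and 7 members had 10 to 19 keratin UMIs. Just outside it, with at most 2 CD3 UMIs, 1 barcode per library had 5 to 9 keratin UMIs, 12 and 25 had 1 to 4, and 141 and 173 had none. On the CD3 side, 36 and 74 members had no CD3 UMI, 16 and 35 had 1, and 6 and 14 had 2. With no CD3 UMI allowed, the suprabasal share of the UMIs of Krt1, Krt10, Krt5 and Krt14 was 35.4% and 41.0%, against 45.6% and 42.5% over all members. A further 9 and 15 barcodes met both limits but had over 12% mitochondrial UMIs. Another 13 and 19 barcodes carried at least 10 keratin UMIs together with 3 or more CD3 UMIs, with CD3 medians of 59 and 42 and median sizes of 15617 and 13611 UMIs. These mixed barcodes were left out of the keratinocytes. Those that met the rule for DETCs, which sets no limit on keratin, remained among the DETCs, where the highest keratin counts were 729 and 988 UMIs. No barcode sequence was a member in both libraries, and 1 member shared its barcode with a kept barcode of the other library, out of 11 kept barcodes that the libraries shared.

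The label keratinocyte was checked on genes that the keratinocyte rule did not use. A panel of 18 keratinocyte genes outweighed a panel of 18 lymphocyte genes in all 58 and all 123 members, with medians of 377 and 323 UMIs against 2 and 2. In DETCs the same medians were 1 and 1 against 86 and 76. The lymphocyte panel includes 1 gene of the rule for DETCs, so its DETC medians are a description. When each barcode was thinned to 500 UMIs the keratinocyte panel still led in 58 of 58 and 122 of 123. Perp, a desmosome-associated target of p63, was found in 58 of 58 and 119 of 123 members and galectin-7 (Lgals7), a lectin of stratified epithelia, in every one. Of 4 lists of other skin cells, 3 were nearly absent, with no UMI in any member for 6 of 8 melanocyte, 6 of 7 Merkel cell and 7 of 9 fibroblast and endothelial genes. The melanocyte genes summed to 5.98 and 5.22 CPM (UMIs of a gene per 1000000 UMIs of the set), the Merkel cell genes to 0.854 and 0, and the fibroblast and endothelial genes to 3.42 and 2.17. Genes of Langerhans and myeloid cells went the other way, at 481 and 659 CPM in members against 58.4 and 83.3 in DETCs.

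Of the genes of the sort gate, Ptprc, which encodes CD45, gave only 3 UMIs in 2 members and 12 UMIs in 6 members, against a UMI in 95.3% and 94.0% of DETCs. Epcam stood at 340 and 224 CPM in keratinocytes, with a UMI in 47 and 91 members, against 9.71 and 10.4 CPM in DETCs. At an equal depth of 2000 UMIs, which left out 2 and 6 small members, Epcam was found in 35.7% (23.4 to 49.6%) and 32.5% (24.1 to 41.8%) of keratinocytes and in 1.33% and 1.55% of DETCs. MHC class II transcripts came from a handful of members. Of the UMIs of H2-Aa, H2-Ab1 and Cd74, 503 of 514 lay in 2 members and 1384 of 1398 in 4. The same members held 14 of 14 and 51 of 52 UMIs of Cd207, which encodes langerin and marks Langerhans cells. The count of genes apart between suprabasal and basal members, and that between libraries, moved by less than 1.5 times without these 6 members.

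Keratin transcripts were also present outside cells. In barcodes of 1 to 100 UMIs, taken as free RNA, the 5 keratins were 0.0937% and 0.133% of UMIs, against 2.41% and 2.47% in keratinocytes and 0.0195% and 0.0185% in DETCs. The keratin share of DETCs therefore lay below that of free RNA. In keratinocytes Trdc, which members were not gated on, was at 1.71 and 7.82 CPM, against 2228 and 1895 CPM in free RNA.

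Set against DETCs, keratinocytes were described gene by gene. Since both sets were chosen from counts of the same barcodes, these ratios are a description. Of 2506 genes with a mean of at least 50 CPM over both sets in each library, 301 (12%) were at least 2-fold higher in keratinocytes in both libraries and 689 (27.5%) at least 2-fold lower. The median log2 ratio over these genes was -0.44 and -0.38, and with ratios centred on it 453 genes were higher and 498 lower. The method counts 1 molecule per UMI at the 3′ end of a transcript, so levels of different genes are not scaled by length. By that measure the most abundant transcripts outside the rule were Malat1 (15056 and 15158 CPM), the ribosomal protein Rplp1 (12118 and 11252), Tpt1 (10520 and 10457), mt-Atp6 (9799 and 10459) and galectin-7 (10764 and 9594). Of these only galectin-7 is an epithelial gene, and it was as abundant in keratinocytes as a ribosomal protein.

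All 17 tested genes of the keratinocyte panel were higher in keratinocytes, with median log2 ratios of 7.01 and 6.98, and all 16 tested genes of the lymphocyte panel were lower, with medians of -6.67 and -7.09. Among the 10 genes that stood highest over DETCs, by the smaller of the 2 libraries, Krtdap, a secreted peptide of differentiating keratinocytes, had 6718 and 7517 CPM in keratinocytes and 6.73 and 20.2 in DETCs, log2 ratios of 9.96 (9.71 to 10.22) and 8.54 (8.41 to 8.67). Dapl1 (8.14 and 8.33), the serpin Serpinb5 (8.11 and 8.20), dermokine (Dmkn, 8.06 and 8.05), the calmodulin-like protein Calm4 (8.45 and 8.04), Fam25c (7.83 and 8.22), Perp (7.88 and 7.81) and Them5 (8.21 and 7.73) followed it. Above Krtdap, Spink5, which encodes the protease inhibitor LEKTI, stood at 9.68 and 9.56, and Krt17, a keratin of hair follicles and stressed epidermis, at 8.68 and 10.40, but single members held 72.3% of the Spink5 and 79.4% of the Krt17 UMIs of the isotype library.

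The lowest genes were those of DETCs themselves. Trat1, a T cell receptor-associated adaptor, Itgae, the integrin chain that binds E-cadherin, and the Vδ segment Trdv4 each had at most 3 UMIs over the members of a library. In DETCs Trat1 stood at 1122 and 1074 CPM, Itgae at 554 and 566 and Trdv4 at 934 and 759. Cd7 had log2 ratios of -10.50 and -8.81 and Col27a1 of -8.93 and -9.88. All 10 tested genes of a list of DETC genes were lower in keratinocytes.

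Among structural groups, 15 of 16 tested genes of the spinous layer list were higher in keratinocytes than in DETCs (medians 7.52 and 7.35). The other, Skap1, was lower, and it encodes a T cell signalling adaptor that the list holds, not a known spinous layer product. Of 10 tested genes of desmosomes and other junctions 7 were higher and none lower (3.96 and 4.01). Desmoplakin (Dsp, 1093 and 1039 CPM against 19.5 and 17.0), which links desmosomes to keratin filaments, desmoglein-1 (Dsg1a, 620 and 611 against 3.65 and 1.56), desmocollin-3 (Dsc3, 558 and 463 against 3.34 and 2.73) and plakoglobin (Jup, 521 and 535 against 121 and 127) led this list. E-cadherin (Cdh1), through which DETCs can be held, was not apart by 2-fold, at 161 and 132 CPM in keratinocytes and 222 and 223 in DETCs.

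Of 11 tested genes of the basement membrane and basal layer, 7 were higher in keratinocytes and 2 lower (medians 5.44 and 5.79). Over all genes tested these shares were 12% and 27.5%. Among the 7 was the hemidesmosome collagen Col17a1, at 370 and 355 CPM against 3.75 and 4.84. The 2 that were lower were Lamb3, a laminin-332 chain, at 42.7 and 41.3 against 106 and 107, and the cyclin Ccnd2, at 239 and 248 against 1072 and 1132. Of 11 tested keratinocyte transcription factors 9 were higher (medians 3.34 and 3.84). Trp63, the master factor of stratified epithelium, stood at 247 and 270 CPM against 1.95 and 1.89, and Klf5 at 353 and 270 against 5.86 and 3.74. Cebpb was the 1 that was lower, at 144 and 202 against 552 and 601.

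Of 8 tested lipid genes of the barrier 4 were higher and 3 lower (medians 1.60 and 1.74), beside 12% and 27.5% of all genes tested. Fabp5, a fatty acid carrier, Elovl4, which makes very long chain fatty acids, the ceramidase Acer1 and Abhd5 were higher. Ugcg, Elovl6 and Scd2, which serve lipid synthesis in many cells, were lower. Of 13 tested genes of oxidative stress and detoxification 6 were higher and 1, Sod1, was lower (medians 0.68 and 1.15). The metallothioneins Mt1 (1037 and 1429 CPM against 131 and 102) and Mt2 (456 and 526 against 18.3 and 13.6) were among the 6.

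Immediate early and heat shock genes, which respond to tissue digestion in many cell types, were strongly expressed in both. Of 23 tested 4 were higher in keratinocytes and 8 lower (medians -0.28 and -0.28), beside 12% and 27.5% of all genes tested and medians of -0.44 and -0.38. Jun stood at 1824 and 1717 CPM in keratinocytes and 887 and 779 in DETCs, and Atf3 at 1077 and 1395 against 207 and 154. Fos did not pass 2-fold, at 2064 and 2138 against 3469 and 3548. The heat shock genes Hspa1a, Hspa1b, Hsp90aa1, Hspa8 and Dnajb1 were lower. The part of tissue preparation in these levels was not tested.

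Basal and suprabasal content came next. Over all members Krt1 and Krt10 made 45.6% (45.0 to 46.2%) and 42.5% (42.1 to 42.9%) of the UMIs of the 4 keratins Krt1, Krt10, Krt5 and Krt14. Single members were mostly at one end or the other. The share was at most 10% in 33 and 68 members and at least 90% in 18 and 41, with 7 and 14 in between and only 1 and 5 of those between 40 and 60%. Members in between had median sizes of 13587 and 17296 UMIs, against 18511 and 16136 for members at the ends. Splitting at an equal number of UMIs gave 21 of 58 (36.2%, 24.0 to 49.9%) and 46 of 123 (37.4%, 28.8 to 46.6%) suprabasal-leaning members, and 37 and 77 basal-leaning ones. The shares of suprabasal-leaning members of the 2 libraries lay inside each other's intervals.

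**Figure D2:**
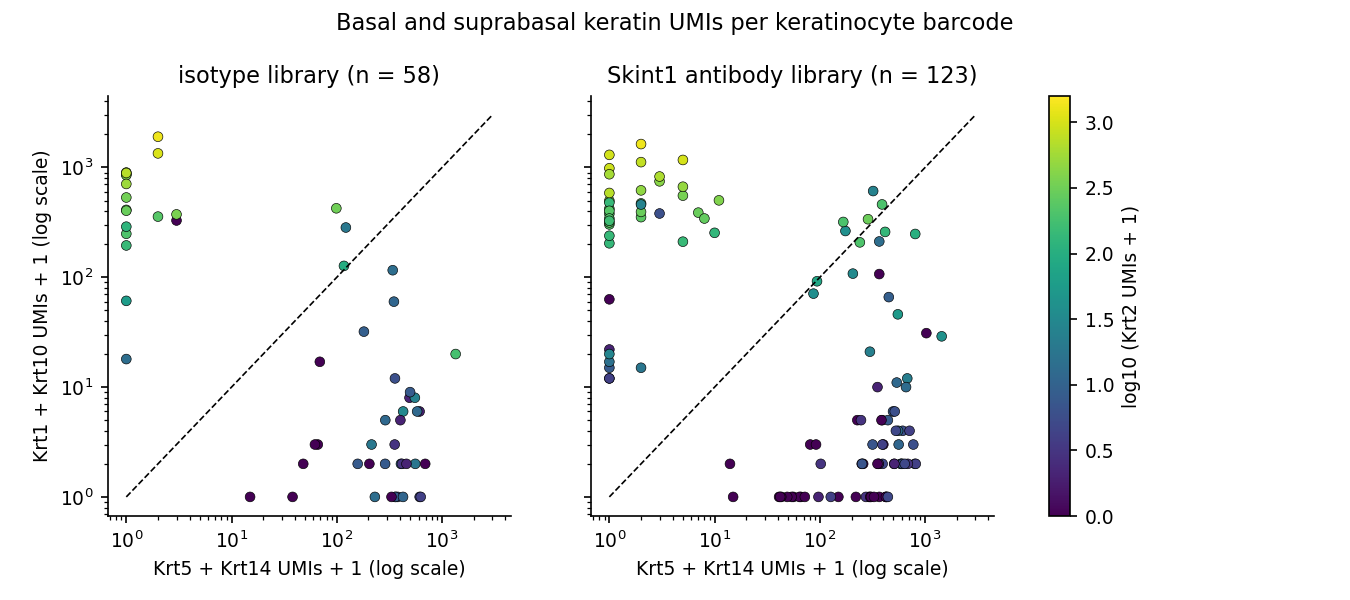
UMIs of Krt5 plus Krt14 (horizontal axis) and of Krt1 plus Krt10 (vertical axis) in each keratinocyte, both plus 1 on log scales, for the isotype library (58 points) and the Skint1 antibody library (123 points), with color for Krt2 UMIs and a dashed line at equality. Members gather along the 2 axes, and most of those rich in Krt1 and Krt10 are also rich in Krt2.

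Suprabasal-leaning members were larger, with medians of 23046 and 24692 UMIs against 14757 and 14199 for basal-leaning ones, and 3814 and 3770 genes against 3086 and 3061. The keratins behind the split are given as levels only, since they made it. In suprabasal-leaning members Krt10 had median UMIs of 394 and 348 and was present in every one. In basal-leaning members Krt14 had medians of 247 and 256 and Krt5 of 113 and 109. Krt15, a keratin of basal and hair follicle stem cells, was one of the keratins that chose the members but was not used to divide them, so that its level too is a description. It reached 10 UMIs in 26 of 37 and 55 of 77 basal-leaning members, with a median of 38 and 33 UMIs, and in 1 of 21 and 3 of 46 suprabasal-leaning ones.

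Krt2 was found in more of the suprabasal-leaning members than Krt1. Keratin filaments form from 1 type I and 1 type II keratin, and Krt10 is of type I. Krt1 was at 0 UMIs in 14 of 21 and 36 of 46 suprabasal-leaning members and reached 10 UMIs in 3 and 7. Krt2, which the rule did not use, was at 0 in 1 and 1, had medians of 305 and 222 UMIs and maxima of 1306 and 1324, and reached 10 UMIs in 20 and 40. At least 10 Krt2 UMIs with fewer than 10 Krt1 UMIs were found in 18 of 21 and 34 of 46. The reverse was found in 1 and 1, and at least 10 UMIs of both in 2 and 6.

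Across members, Krt2 and Krt10 levels in CPM had Spearman correlations of 0.79 (58 members) and 0.84 (123 members), and Krt1 and Krt10 of 0.19 and 0.06. Krt1 and Krt10 are among the 5 keratins that chose the members, so these values are a description and support nothing, over members that share a library and differ in depth. Krt1 was held unevenly, with 38.9% and 25.5% of its UMIs in 1 member of each library, and 12 of 37 and 34 of 77 basal-leaning members also had a Krt1 UMI. On GRCm38 the type II genes lie on chromosome 15, with Krt1 at 101845426 to 101850794, Krt2 at 101810689 to 101818169 and Krt5 at 101707070 to 101712898, and the type I genes on chromosome 11, with Krt10 at 99385254 to 99389364, Krt14 at 100203162 to 100207548 and Krt15 at 100131758 to 100135928.

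Of 1980 genes tested between the 2 kinds of member, 163 (8.23%) were at least 2-fold higher in suprabasal-leaning members in both libraries and 183 (9.24%) at least 2-fold lower. The median log2 ratio of suprabasal over basal was -0.15 and -0.14, and centred ratios gave 191 higher and 146 lower. The split was made on 4 keratins of the same cells, so these counts describe what went with it.

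All 7 tested lipid barrier genes were higher in suprabasal-leaning members, with median log2 ratios of 3.97 and 3.79. Elovl4 stood at 452 and 498 CPM against 8.23 and 24.4 in basal-leaning members, log2 ratios of 5.78 (4.54 to 7.42) and 4.35 (3.80 to 4.95). It had a UMI in 19 of 21 and 42 of 46 suprabasal-leaning members and in 4 of 37 and 8 of 77 basal-leaning ones. Fabp5 stood at 1872 and 1757 CPM against 90.5 and 89.0, Acer1 at 299.9 and 351 against 18.1 and 25.3, and Abca12, the lipid transporter of lamellar granules, at 103 and 101 against 6.58 and 3.49. Elovl1, Degs1 and Abhd5 made up the 7. The 3 tested genes of a sebaceous gland list, the lipid enzymes Dgat2, Scd1 and Acsbg1, were higher as well, with medians of 1.52 and 2.07. Of the 15 genes of that list 5 had no UMI in any member.

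Of 16 tested genes of the spinous layer list 8 were higher and 1 lower (medians 1.04 and 2.04). Krt2 reached 13628 and 12042 CPM against 678 and 796, log2 ratios of 4.33 (4.19 to 4.48) and 3.92 (3.82 to 4.02). Krtdap stood at 12501 and 13997 against 1356 and 983, the epidermal metallothionein Mt4 at 3797 and 4988 against 173 and 525, and Calm4, of no list here but among the 8 highest genes, at 8349 and 9004 against 724 and 986. Krt24 (log2 ratios 3.82 and 3.19) and Lypd3 (2.85 and 3.12) completed the 8 highest. The 1 spinous gene that was lower was Serpinb2, at 165 and 125 against 380 and 517. Galectin-7 and stratifin (Sfn) did not pass 2-fold, with log2 ratios of 0.72 and 0.74, and of 0.37 and 0.31.

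Promoters of suprabasal genes are shown because their transcripts went with the suprabasal keratins. Of the 8 genes highest in suprabasal-leaning members, 7 are in the RefSeq promoter table for GRCm38.p6. The motif TATAAA, on either strand, lay within 100 bases before the start in 2 of these 7, in 0 of the 5 of the 8 highest basal genes that are in the table, and in 1827 of all 32851 promoters (5.56%). The 2 genes were Krtdap and Mt4, and Krt10, which the split used, also has it. Each line gives the 100 bases before the start, 5′ to 3′ on the strand of the gene, with the motif in capitals.
Krt10 (chr11:99389365-99389464, minus strand): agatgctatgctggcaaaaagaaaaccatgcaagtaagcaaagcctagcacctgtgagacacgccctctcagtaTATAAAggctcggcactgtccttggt
Krtdap (chr7:30787805-30787904, plus strand): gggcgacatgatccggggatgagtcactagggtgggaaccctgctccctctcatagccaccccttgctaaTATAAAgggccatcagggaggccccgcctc
Mt4 (chr8:94137104-94137203, plus strand): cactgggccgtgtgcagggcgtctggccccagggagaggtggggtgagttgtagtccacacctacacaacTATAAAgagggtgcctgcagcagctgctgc
The first base of the motif lies 26 bases before the start in Krt10 and 30 bases before it in Krtdap and Mt4. A match is a description of the sequence and not of a site in use.

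Of 14 tested desmosome and junction genes 8 were higher in suprabasal-leaning members and none lower (medians 1.18 and 1.11). Dsg1a stood at 1109 and 1035 CPM against 166 and 184, the connexin Gjb5 at 146 and 159 against 18.1 and 33.2, and the tight junction claudin Cldn4 at 130 and 122 against 29.6 and 21.8. Claudin-1 (Cldn1) was even, at 137 and 126 against 132 and 96.0. Of 17 tested keratinocyte transcription factors 5 were higher in suprabasal-leaning members and 2 lower. Among the higher ones were Cebpa, Grhl1, Zfp750 and Rora. Grhl1 stood at 170 and 139 CPM against 36.2 and 27.9. The 2 that were lower were Hopx, at 133 and 159 against 402 and 323, and Sox9, a factor of hair follicle cells, at 0 and 1.73 against 156 and 114. Trp63 did not pass 2-fold, at 211 and 212 against 280 and 328.

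Basal-leaning members carried adhesion and matrix genes. Of 12 tested genes of the basal layer and basement membrane, 9 were at least 2-fold lower in suprabasal-leaning members and none higher (medians -2.31 and -2.25). Col17a1 had 610 and 605 CPM in basal-leaning and 110 and 106 in suprabasal-leaning members, log2 ratios of -2.47 (-2.88 to -2.08) and -2.51 (-2.79 to -2.23). The integrins Itga6 (258 and 207 against 60.3 and 51.9), Itgb4 (145 and 122 against 12.4 and 13.9) and Itgb1 (122 and 146 against 17.7 and 14.7), which bind laminin, had the same order. Periostin (Postn), a matrix protein, was found in 26 of 37 and 46 of 77 basal-leaning members and in 1 of 21 and 2 of 46 suprabasal-leaning ones.

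Of the 8 genes highest in basal-leaning members 2 encode chemokines. Ccl27a, the first of the 8 and a skin chemokine for CCR10+ T cells, had 512 and 457 CPM against 12.4 and 15.6, log2 ratios of -5.36 (-6.69 to -4.30) and -4.87 (-5.64 to -4.20). Cxcl14 had 393 and 403 against 31.9 and 13.0. The interferon-induced Ifitm3, Ccnd2, Tspo, S100a6, Crip1 and Ftl1 completed the 8, and the last 5 of these stood higher in DETCs than in basal-leaning members in both libraries. Crip1 had 683 and 675 CPM in basal-leaning members and 3583 and 4206 in DETCs, whereas Tspo was close, at 456 and 490 against 501 and 541.

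All 5 tested proliferation genes were lower in suprabasal-leaning members (medians -4.12 and -2.17). These were Hmgb2, Stmn1, Pcna and the cyclins Ccnd1 and Ccnd2. At least 5 UMIs of the 6 mitotic genes Mki67, Top2a, Cdk1, Ccnb1, Ccnb2 and Birc5 were found in 4 of 37 (10.8%, 3.03 to 25.4%) and 10 of 77 (13.0%, 6.41 to 22.6%) basal-leaning members and in 0 of 21 and 1 of 46 suprabasal-leaning ones. Immediate early and heat shock genes lay the same way, with 0 of 22 higher and 9 lower (medians -0.90 and -1.16). Fos stood at 2862 and 3061 CPM in basal-leaning against 1203 and 1222 in suprabasal-leaning members. Mt1, Mt2, Txn1 and Gpx4 were the 4 lower of 12 oxidative stress genes, and the peroxiredoxin Prdx5 was the 1 higher, at 889 and 977 against 220 and 160.

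**Figure D3:**
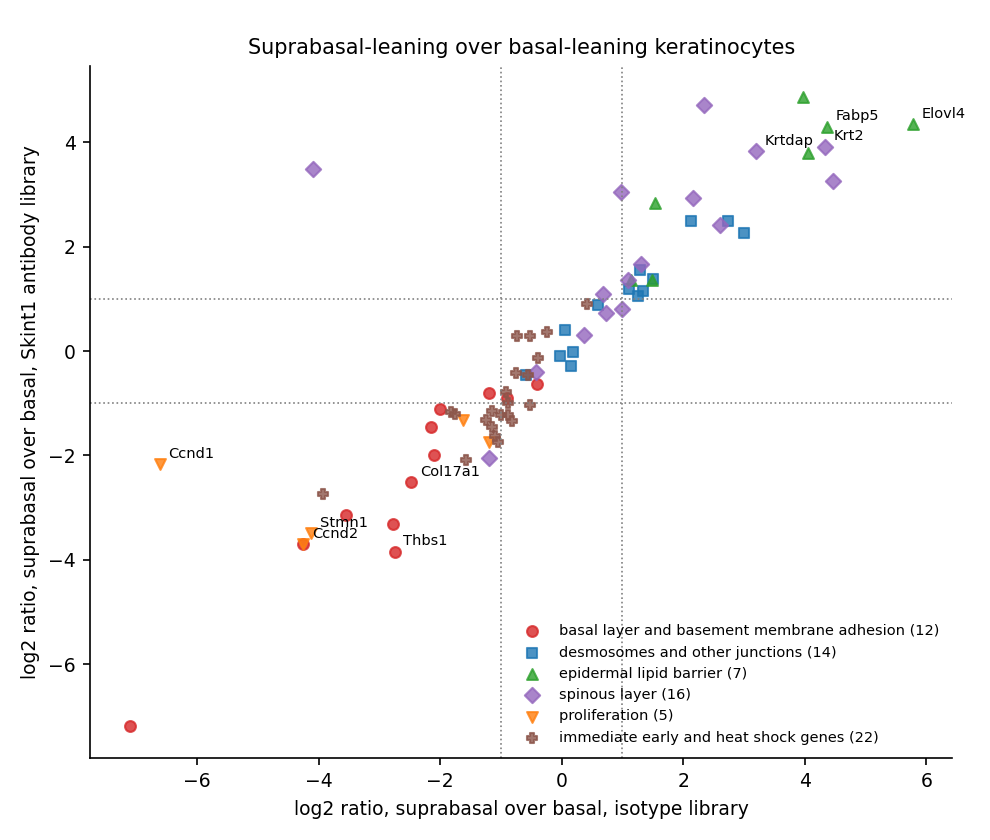
Log2 ratio of suprabasal-leaning over basal-leaning keratinocytes in the isotype library (horizontal axis) and the Skint1 antibody library (vertical axis) for tested genes of 6 lists, 1 point per gene, with dotted lines at 2-fold. Lipid barrier genes such as Elovl4 (5.78 and 4.35) lie at the upper right, basal layer genes such as Col17a1 (-2.47 and -2.51) at the lower left, and Cst6 (-4.10 and 3.50) at the upper left.

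Granular layer genes were scarce. Only 4 of 31 passed the level filter for this comparison, and 3 of 31 had no UMI in any member of either library. Periplakin (Ppl, 177 and 227 CPM against 69.1 and 73.3) and envoplakin (Evpl, 137 and 115 against 28.0 and 32.3), which form the scaffold of the cornified envelope, were higher in suprabasal-leaning members, and Hopx, named above, was lower. Medians of the tested genes were -0.12 and 1.73. The whole list summed to 985 and 6387 CPM in suprabasal-leaning and 1677 and 608 in basal-leaning members. In the isotype library 1 basal-leaning member held 532 of the 1574 UMIs of the list. Involucrin (Ivl) was at 39.0 and 61.5 CPM in suprabasal-leaning and 6.58 and 8.73 in basal-leaning members, from 10 and 21 members with a UMI, below the filter. Transglutaminase 1 (Tgm1), which crosslinks the envelope, was at 3.42 and 11.7 CPM, from 4 and 8 members, all suprabasal-leaning.

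The granular signal of the Skint1 antibody library lay in 1 member. Loricrin, the main protein of the cornified envelope, had 4089 UMIs there, of which 4079 (99.8%) came from a single barcode of 28787 UMIs and 3113 genes. Its Krt1, Krt10, Krt5 and Krt14 UMIs were 100% suprabasal. The same barcode held 441 of 451 UMIs of filaggrin-2 (Flg2), 181 of 202 of filaggrin (Flg), 200 of 245 of hornerin (Hrnr), 265 of 277 of Crct1, 518 of 530 of Wfdc21, 269 of 331 of the protease Asprv1 and 128 of 220 of the kallikrein Klk7. It also held 135 of 181 UMIs of Il18. Its 5767 UMIs were most of the 8075 that the granular list had over all members of this library. In the isotype library loricrin had 6 UMIs, 1 each in 6 members, and Flg none. Loricrin also stood at 73.0 CPM in the free RNA of the Skint1 antibody library against 2.82 in that of the isotype library, and at 1.89 against 0.103 CPM in DETCs.

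Skint genes were at low levels and mostly suprabasal. Of 16 genes of the Skint and butyrophilin family 8 had no UMI in any member and none reached the 50 CPM filter, so they are given as levels. The family summed to 161 and 146 CPM in keratinocytes and to 0.822 and 0.631 in DETCs. A UMI of any of the 16 was seen in 18 of 21 (85.7%, 63.7 to 97.0%) and 40 of 46 (87.0%, 73.7 to 95.1%) suprabasal-leaning members and in 13 of 37 (35.1%, 20.2 to 52.5%) and 22 of 77 (28.6%, 18.8 to 40.0%) basal-leaning ones, with medians of 23046 and 24692 against 14757 and 14199 UMIs per member.

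Skint10 and Skint5 carried most of this. Skint10 had 81.6 and 113 CPM in suprabasal-leaning members, from 15 of 21 and 34 of 46, and 0 and 2.62 in basal-leaning ones, from 0 of 37 and 3 of 77. Skint5 had 95.8 and 64.1 CPM against 4.94 and 9.60, from 15 and 25 suprabasal-leaning and 3 and 10 basal-leaning members. Skint2 was found in 6 and 11 members, all of them suprabasal-leaning. At an equal depth of 2000 UMIs, Skint10 was seen in 4 of 19 and 7 of 40 suprabasal-leaning members against 0 of 37 and 0 of 77 basal-leaning ones, and in 1 DETC of 3994 and 1 of 5468.

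Skint1, the target of the antibody, was spread over both kinds of member. It had 36 UMIs in 15 of 58 members and 55 UMIs in 34 of 123, or 30.7 (21.5 to 42.6) and 23.9 CPM (18.0 to 31.1), with at most 6 and 4 UMIs in 1 member. The log2 ratio of the Skint1 antibody over the isotype library was -0.36 (-0.99 to 0.29), so that a change in Skint1 RNA was not detectable at this depth. In suprabasal-leaning members it stood at 26.6 and 27.7 CPM and in basal-leaning ones at 34.6 and 20.1, log2 ratios of -0.38 (-1.44 to 0.65) and 0.46 (-0.35 to 1.30). The basal-leaning isotype level rests in part on few barcodes. The isotype members with most Krt79, Krt17 and Cst6 UMIs, all basal-leaning, held 6, 5 and 2 Skint1 UMIs. A Skint1 UMI was found in 6 of 21 suprabasal-leaning against 9 of 37 basal-leaning members with the isotype control. With the Skint1 antibody it was found in 21 of 46 (45.7%, 30.9 to 61.0%) against 13 of 77 (16.9%, 9.31 to 27.1%), intervals that did not overlap, between members with medians of 24692 and 14199 UMIs. After thinning to 2000 UMIs it was 0 of 19 and 1 of 40 against 2 of 37 and 2 of 77, too few to give an order. In CPM, the interval of the ratio between the layers included 0 on the log2 scale in both libraries. DETCs had 0.0514 and 0.0421 CPM of Skint1 and free RNA 0 and 0.305. Skint1 lies on chromosome 4 of GRCm38, on the plus strand from 112006269 to 112029538, and Skint10 and Skint5 lie on the minus strand of the same chromosome, at 112711147 to 112774866 and 113477891 to 113999503.

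**Figure D4:**
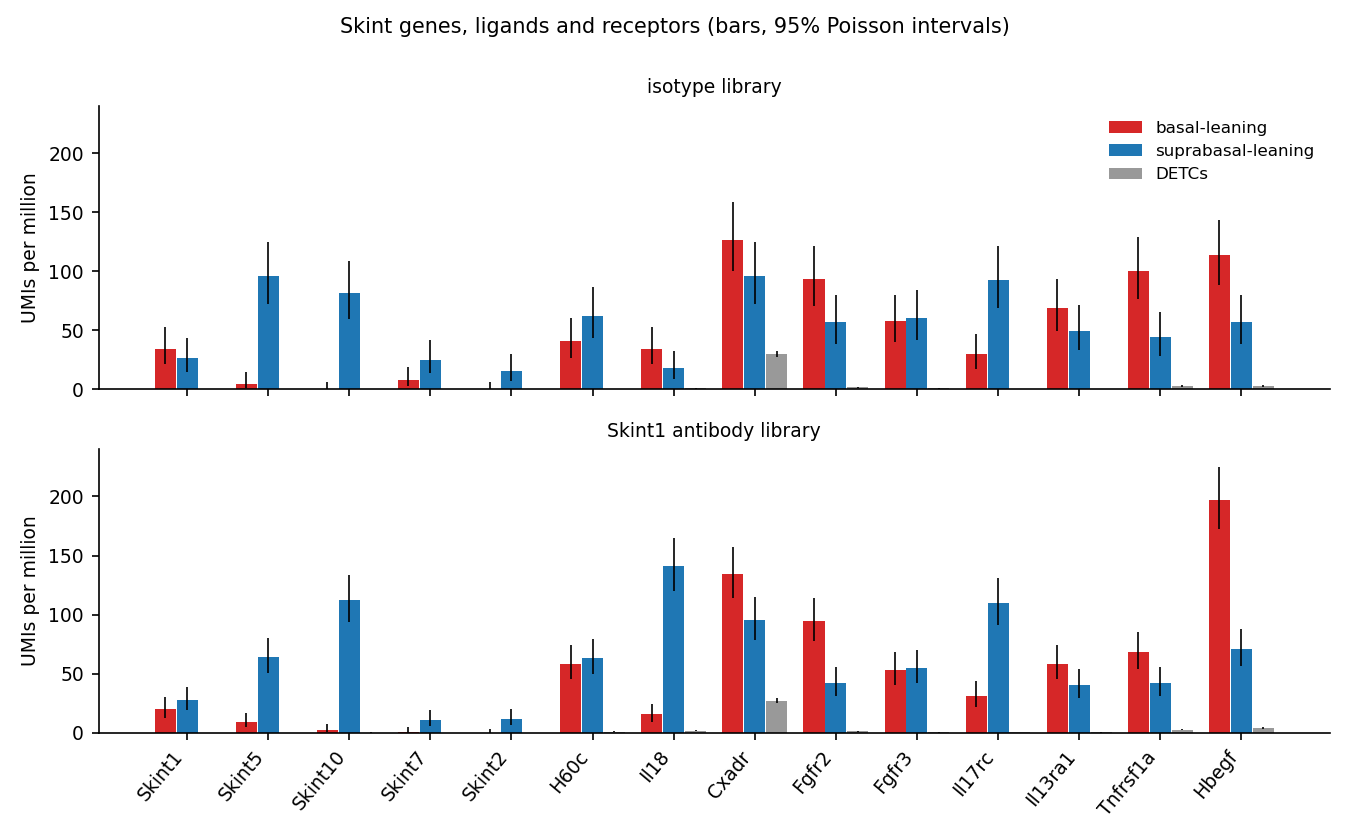
CPM (vertical axis) of 14 Skint, ligand, receptor and growth factor genes in basal-leaning keratinocytes, suprabasal-leaning keratinocytes and DETCs of the isotype (top) and Skint1 antibody (bottom) libraries. Lines are exact 95% Poisson intervals. Skint5, Skint10 and Il17rc stand higher in suprabasal-leaning members in both libraries, while the Skint1 intervals overlap.

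Ligands for lymphocytes followed. Of 29 measured genes of this list 5 were tested against DETCs, where 3 were higher and 1, Tgfb1, was lower. The 3 were Ccl27a (271 and 235 CPM against 8.48 and 9.51), Cxcl14 (219 and 207 against 1.34 and 1.14) and Cxadr (112 and 115 against 30.0 and 27.3), which binds the costimulatory receptor JAML of DETCs. Ccl27a and Cxcl14 were also the 2 of 5 tested that were lower in suprabasal-leaning members (list medians -0.40 and -0.50). The NKG2D ligand H60c had 51.2 and 60.9 CPM from 25 and 64 members, with log2 ratios of suprabasal over basal of 0.59 (-0.19 to 1.40) and 0.11 (-0.39 to 0.61). Tslp had 33.3 and 26.5 CPM. Il18 had 26.5 and 78.7, and the second value rests on the granular member named above.

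Receptors for lymphocyte products were near or under the filter. The fibroblast growth factor receptors Fgfr2 (76.0 and 68.2 CPM), which keratinocyte growth factor binds, and Fgfr3 (58.9 and 53.9), the TNF receptor Tnfrsf1a (73.4 and 55.2), Il17rc (59.8 and 70.9) and Il13ra1 (59.8 and 49.6) led the list of 28, all of which had a UMI in some member. Only Tgfbr2 was tested against DETCs, and it was lower in keratinocytes. In DETCs these 5 stood between 0.206 and 2.98 CPM. Il17rc, a chain of the IL-17 receptor, was the 1 of 4 tested that was higher in suprabasal-leaning members, at 92.3 and 110 CPM against 29.6 and 31.4, and none was lower (medians -0.33 and -0.32). Of 8 growth factors of the EGF family 1 passed the filter against DETCs and was lower in keratinocytes. This was amphiregulin (Areg), at 39.3 and 54.8 CPM in keratinocytes and 550 and 531 in DETCs. Heparin-binding EGF (Hbegf), under the filter in the isotype library, was at 86.2 and 134 in keratinocytes and 2.88 and 3.91 in DETCs.

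The last comparison set the keratinocytes of the Skint1 antibody library against those of the isotype library. Most genes lay close to each other. Of 2151 genes tested, 13 (0.604%) were at least 2-fold higher in the Skint1 antibody library and 10 (0.465%) at least 2-fold lower, with a median log2 ratio of -0.01. The keratins of the rule, which chose the members, had log2 ratios of 0.03 (Krt5), 0.18 (Krt14), -0.08 (Krt10), -0.16 (Krt15) and 0.92 (Krt1). Among the lists, which can share genes, 5 of 9 tested granular layer genes were higher in the Skint1 antibody library and 1 lower, 2 of 6 proliferation genes were higher, 2 of 6 hair follicle genes lower, and of 6 stress and antimicrobial genes 1 was higher and 2 lower. Of 16 spinous layer genes 1 was higher and 1 lower, 1 of 6 ligands was higher, and 2 of 5 keratins outside the rule and 1 of 17 keratinocyte panel genes were lower. The other lists had no gene past 2-fold.

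For 16 of the 23 genes, 1 member held at least 50% of the UMIs of the library where the gene was higher, and 9 of the 23 were under 2-fold without the member with most UMIs in each library. Recounted over all genes without the top member of each, 11 genes were apart by 2-fold. Higher in the Skint1 antibody library were 10 genes for which the granular member held the most UMIs. Of these, Lor (log2 ratio 8.44, and 0.03 without the top members), Asprv1 (2.31 and 0.28), Il18 (1.57 and -0.09) and Cysrt1 (1.25 and 0.48) fell under 2-fold. The others stayed past 2-fold without the top members, with Hrnr at 2.93, Flg2 at 2.35 and Klk7 at 2.23. Hspb8 stood at 1.09, and Crct1 and Wfdc21 at 1.03. Hrnr, Crct1 and Wfdc21 had no isotype UMI, so their values are bounds. Krt6a was the lowest of the genes lower in this library, with 123 UMIs, 86 of them in 1 member, against 4.

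For 7 of the 10 genes lower in the Skint1 antibody library the top isotype member was 1 of 2 barcodes. One of 41352 UMIs, whose 4 keratins were 0% suprabasal, held 1507 of 1897 UMIs of Krt17, 86 of 123 of Krt6a, 427 of 591 of Spink5 and 76 of 110 of Crabp2. Another of 12317 UMIs held 3164 of 5639 UMIs of Cst6, a cystatin of differentiating and follicular cells, and 1024 of 1909 of the defensin Defb6. Genes of the hair follicle list summed to 3856 and 1226 CPM, and the 5 richest members held 94.2% and 64.5% of their UMIs. At least 10 UMIs of Krt17 and Krt79 together, keratins of the follicle and its infundibulum, were found in 5 and 8 members, which held 2077 of 2103 and 944 of 1003 of these UMIs.

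Stmn1, a microtubule regulator of dividing cells, had 135 and 316 CPM from 25 and 61 members, a log2 ratio of 1.23 (0.98 to 1.49) and of 1.37 without the top members. Top2a had 35.0 and 92.2 CPM, a log2 ratio of 1.40 and of 2.96 without the top members, and 30 of its 41 isotype UMIs lay in 1 member. The transcriptional repressor Hes1, a target of Notch, had 82.8 and 179 CPM from 31 and 67 members (1.11, 0.79 to 1.44), and the small heat shock protein Hspb8 32.4 and 68.7 (1.08, 0.56 to 1.63). Ccl20, a chemokine for CCR6+ cells, had 162 and 44.3 CPM from 12 and 14 members (-1.87, -2.23 to -1.52). Its log2 ratio was -3.24 in suprabasal-leaning and -0.80 in basal-leaning members. In DETCs the ratio was -1.40 for Ccl20, -0.39 for Stmn1, -0.51 for Top2a, 0.21 for Hes1, 0.36 for Hspb8 and 0.79 for Ch25h. Ch25h had 68.3 and 33.5 (-1.03, -1.50 to -0.56) and was under 2-fold, at -0.97, without the top members. Among genes of at least 200 CPM, Krt1 (239 and 452 CPM, 0.92), Tubb5 (213 and 395, 0.89), Cd74 (194 and 317, 0.71) and Hmgb2 (391 and 637, 0.70) were next highest and Cstb (390 and 212, -0.88) next lowest, all under 2-fold over all members. Without the top members Krt1 and Tubb5 passed 2-fold, at 1.20 and 1.07, and without the 5 members with most UMIs in each library they stood at 0.79 and 1.12. Cd74 stood at -0.08 without those 5 members and at 4.17 without its top members. These ratios compare 2 libraries and have no replicate.

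**Figure D5:**
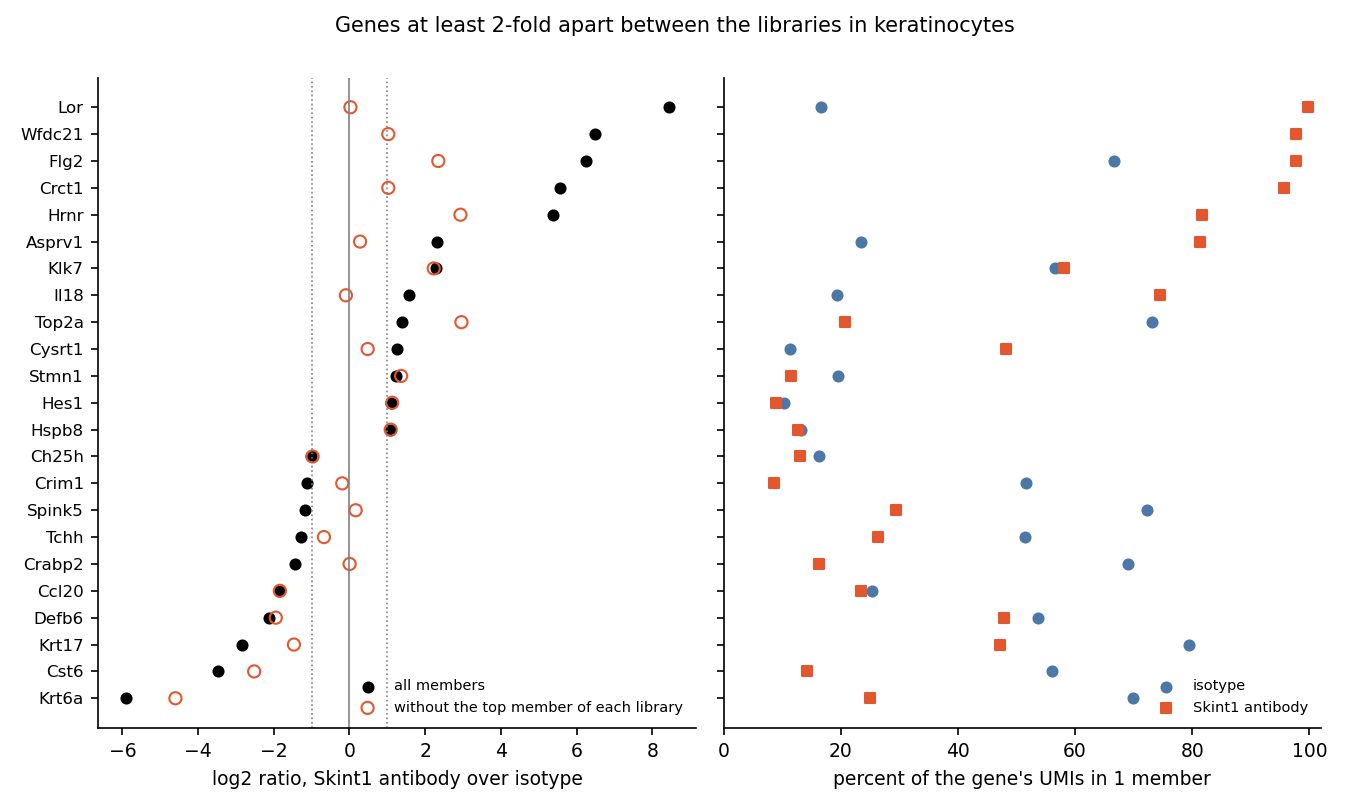
Left, log2 ratio of the Skint1 antibody over the isotype library in keratinocytes (horizontal axis) for the 23 genes at least 2-fold apart, over all members (filled) and without the top member of each library (open), with dotted lines at 2-fold. Right, percent of UMIs of the gene in 1 member of each library. Lor moves from 8.44 to 0.03 without its top members, while Stmn1 (1.23 and 1.37), Hes1 (1.11 and 1.13) and Ccl20 (-1.87 and -1.84) stay in place.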

How the data were processed

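Single cells were captured with the 10x Genomics 3′ kit, version 3. The authors aligned the reads with CellRanger 3.0.2 to the prebuilt mm10 index (GRCm38), and deposited the unfiltered UMI counts of 31053 genes in all 6794880 barcodes. The totals were 27.3 and 32.5 (in units of 1000000 UMIs), of which keratinocytes held 1.17 and 2.30. No value column was left unmapped.

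Members, gene lists and comparisons were chosen with earlier results of these data known. UMIs were summed per set and library and given as CPM, with scipy 1.17.1, pandas 2.3.3 and numpy 2.4.6 under Python 3.11.15 (figures with matplotlib 3.10.9). Genes with a mean of at least 50 CPM over the sets compared were tested for a ratio of at least 2-fold. Where sets were compared within a library, both libraries had to reach this mean. "Tested" means that a gene passed this filter, and no statistical test was made. Where 1 set had no UMI, its count was set to 3 (a lower bound). Levels have Poisson, ratios conditional binomial and shares Clopper-Pearson intervals. No doublet caller was run, and barcodes with keratin and 3 or more CD3 UMIs were left out of the keratinocytes but not of the DETCs. Cells were thinned to 2000 UMIs for shares and to 500 for the panel check. The ratio script was tested on simulated data.

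Named genes were the rule, sort gate and study genes, the 10 most abundant, the 10 highest and 5 lowest against DETCs, the 8 highest and 8 lowest between layers, the 5 highest and 5 lowest between libraries (all of at least 200 CPM but the first 2 kinds), the 4 most abundant of each list, and those that a count of 5 or fewer refers to. Any other gene named was chosen after its values were seen. Alternatives were other limits of the rule, level filters, scalings and folds. Some genes of the lists are not reported here by name.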

Additional observations from a re-analysis of the deposited data

Results flagged for a closer look

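Opposite log2 ratios of suprabasal-leaning over basal-leaning members were found in the 2 libraries for 5 genes. In each case the difference was not tested. Cd74 stood at -6.70 in the isotype and 5.89 in the Skint1 antibody library, H2-Aa at -5.88 and 5.80, and H2-Ab1 at -5.61 and 5.99, where the first is a bound because no suprabasal-leaning isotype member had a UMI. One member held 94.3%, 94.6% and 96.2% of their isotype UMIs, a basal-leaning barcode that also held all 14 Cd207 UMIs, and in the other library the highest shares in 1 member were 36.9%, 37.3% and 44.2%. Cst6 stood at -4.10 and 3.50, with 56.1% and 14.2% of its UMIs in 1 member. Spink5 stood at -2.83 and 3.71, with 72.3% and 29.5% in 1 member.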

How the results depend on the processing

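With barcodes of 500 to 2500 genes, 4 and 20 members were left, 0.0943% and 0.336% of kept barcodes, with suprabasal shares of 22.7% and 20.6%, and 193 genes higher and 235 lower than in DETCs and 745 apart between libraries. At most 5% mitochondrial UMIs gave shares of 2.30% and 4.49%, suprabasal shares of 42.0% and 40.6% and 35 genes apart between libraries. No CD3 UMI gave 0.755% and 1.14%, with suprabasal shares of 35.4% and 41.0%. At least 50 keratin UMIs gave 12 genes apart between libraries. A filter of 20 CPM gave 638 genes higher and 1444 lower than in DETCs, 706 apart between layers and 76 between libraries, and no filter other than 10 UMIs gave 1807, 3051, 1392 and 969. At 4-fold these were 185, 351, 121 and 11. Centring gave 453 higher than in DETCs.

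Alternatives added after seeing the data left out MHC class II members, the top member of each gene, or DETCs with keratin. Without the top member 11 genes were apart between libraries. The Spink5 log2 ratio between libraries, -1.18, turned to 0.16 without the top members, and to 0.74 without the 5 largest members, an alternative fixed earlier. Of the other values of named genes 96 kept within their interval and 46 moved beyond it. Of the shares and counts, 48 other values stayed within their interval or within 1.5 times. No paired analysis was possible because each treatment has 1 library. With 58 and 123 members, genes under 50 CPM rest on few UMIs.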
